A study of Caenorhabditis elegans with 2 samples.

Results

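Of the 30000 regions that the pooled ChIP-seq experiment ranked, 3465 lay on the X chromosome of Caenorhabditis elegans. They were taken as every row on X of the authors' relaxed region list, made from both biological replicates together, and 98 of them were also in the authors' optimal list of 2498 regions. The other nuclear rows were 26515 on the 5 autosomes, of which 2382 were optimal. The authors describe the optimal list as peaks passing a threshold on the irreproducible discovery rate, from the pooled and both replicates' relaxed lists. It held exactly the first 2498 ranks of the pooled list by the authors' signal value, so an optimal X region is one that ranked among those 2498. The few X regions that did rank there held an E2F core at the summit more often than autosomal regions of like rank (a difference that did not pass the test in replicate 1 alone), lay less often in promoters that serve genes on both strands, and lay more often at tRNA genes. The chromosome itself differs in both respects: both-strand stretches made up 3.31% of the promoter bases of X, against 9.91% on the autosomes, and stretches near tRNA genes 0.680% of all bases, against 0.185%. Counted per tRNA gene, 5.80% of those on X had an optimal summit within 200 bp, against 12.8% on the autosomes.

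The assay was chromatin immunoprecipitation of EFL-1, one of the E2F family transcription factors of the worm, from whole young adults of strain YL445 (unc-119(ed3) III; vrIs81), which the labels give as pooled male and female. All libraries came from 1 group with 2 biological replicates and no second condition. The strain carries EFL-1 fused to GFP and FLAG, under the germline promoter of pie-1, with the efl-1 3′ UTR and an unc-119(+) rescue marker, so the tagged protein was not driven by its own promoter. The antibody is given as efl-1 in one field, while another describes the target as eGFP-efl-1. The pooled relaxed list is described as made from the alignments of both replicates and a control. Control libraries and sequencing depth were not analysed here.

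E2F proteins bind a GC-rich core with a dimerisation partner, and in worms EFL-1 with DPL-1 acts both in the DREAM repressor complex and in activating genes of oogenesis and early embryogenesis. The X chromosome is held in a largely repressed state in worm germ cells, and genes expressed in the germline are scarce on it. In somatic cells of hermaphrodites the dosage compensation complex lowers X expression. Males carry a single X, so in a pool of both sexes fewer X copies per worm and lower occupancy of each copy cannot be told apart in these values.

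The sites at the centre of the strongest X regions are shown first, because the share of regions with an E2F core is one of the results. The core was searched as the word TTCCCGC or the word TTCGCGC, and likewise TTGCCGC and TTGGCGC, on both strands within 50 bp of the summit, and capitals mark it. All coordinates are on ce11 (WBcel235), and the reference sequence is RefSeq's. Each line gives 29 bases, written on the strand on which the core reads as listed.
mrp-4, rank 257, chrX:9884064-9884092, minus strand: gaatccaaaaaTTGCCGCtcgcgatctac
C49F5.6, rank 285, chrX:11988106-11988134, minus strand: gcgcctttttcTTCCCGCcatgcaataca
C04B4.2, rank 572, chrX:12283117-12283145, minus strand: agttgcgaaatTTCCCGCaagtagatcaa
lin-15B, rank 617, chrX:15725159-15725187, minus strand: gcgcgctctttTTCGCGCgcaacccaaca
chtl-1, rank 645, chrX:5360861-5360889, plus strand: tgtcaactatcTTCCCGCcaggaacacat
The centres of the 5 cores lay between -15 and 14 bp from their summits, in chromosome coordinates. Strong X summits that held no core are set beside them, centred on the summit itself, to show what stood there instead.
K04C1.5, rank 591, chrX:14247640-14247668, plus strand: tgctgcggcccgcgcaccgcgcacatttc
Intergenic region, rank 621, chrX:16418575-16418603, plus strand: cggggggcgcctccaacacaagatcaaaa
W06D11.3, rank 689, chrX:12298537-12298565, plus strand: taccatttcttggcggcattttttgaatt
The strings at K04C1.5 and at the intergenic region are rich in G and C, without any of the 4 core words within 50 bp.

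No X region stood among the 256 strongest of the pooled list. X held 17.7% of the nuclear bases and 13.7% of the nuclear protein-coding genes, and 11.6% of the nuclear rows of the pooled list, but 3.95% of the nuclear rows of the optimal list. Of the 3465 X rows, 98 (2.83%) were optimal, against 2382 of 26515 autosomal rows (8.98%), where 8.33% of all 30000 rows were optimal. The odds ratio was 0.295 (95% interval 0.238 to 0.362, two-sided Fisher's exact test, adjusted p = 3.75e-43 over 9 tests), and 0.171 for the upper 50% of the optimal list. Among the autosomes the share of rows that were optimal ran from 7.39% on V to 10.5% on II, all above X. Regions of 1 experiment were the units of every such test, so the p-values measure the spread between regions and not between worms.

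The deficit on X was deepest at the top of the ranking and shrank along it. In the pooled list X held 0 of the first 250 ranks, 2 of the next 250, and 20 of ranks 501 to 1000 (4%, 95% Wilson interval 2.60 to 6.10%). Its share was 7.83% at ranks 2001 to 2498, 9.43% at ranks 2499 to 5000 and 14.2% at ranks 25001 to 30000, close to its share of genes. The highest signal value on X was 268, while the highest value on each autosome ran from 1069 on I to 1564 on III. Replicate 1 and replicate 2, ranked separately, both showed the climb. In replicate 1's list the best X row had rank 326, and the X share was 4.28% in the first 2498 ranks and 15.9% below them. In replicate 2's list 2 X rows stood in the first 250, and the X share was 3.96% in the first 2498 ranks and 11.6% below them. With each replicate's first 2498 rows taken in place of the optimal list, the odds ratio was 0.238 in replicate 1 and 0.318 in replicate 2.

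**Figure D1:**
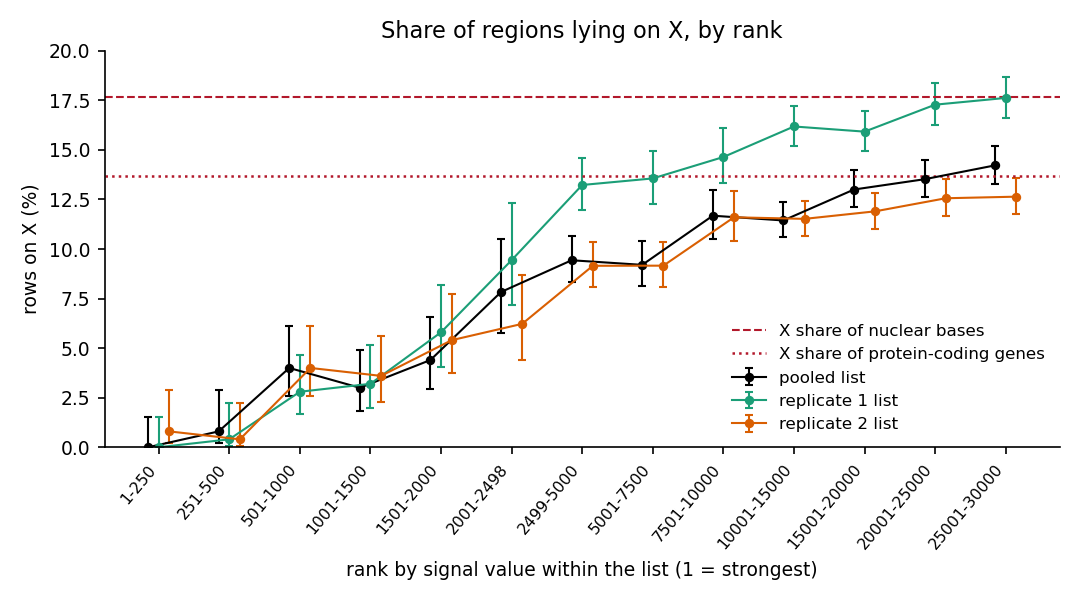
Percent of regions on X (y axis) by rank within each list (x axis), for the pooled list, replicate 1 and replicate 2, with 95% Wilson intervals as bars. The pooled share climbs to 14.2% in the last band, and the dashed and dotted lines mark X's 17.7% of bases and 13.7% of protein-coding genes.

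The strongest X regions were mostly promoter-proximal and present in both replicates, as were autosomal regions of like rank. A summit was placed in a gene's promoter window when it lay within 1000 bp upstream to 200 bp downstream of an annotated 5′ end. Of the 30 X optimal rows of highest signal, 24 lay in the window of 25 protein-coding genes, 16 held a core, none lay within 200 bp of a tRNA gene, and 29 were among the first 2498 rows of both replicates. Of the autosomal rows at ranks 501 to 1000, 84.2% lay in a promoter window and 33.6% held a core. At a tRNA gene lay 0 of these 476 rows, and 98.5% were among the first 2498 of both replicates. At ranks 1001 to 1500 the autosomal shares were 75.2% for promoters, 25.05% for cores and 85.8% for both replicates.

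The strongest X row lay upstream of mrp-4 (chrX:9883937-9884187), which encodes an ABC transporter of the multidrug resistance protein family. Its signal value was 62.9 in replicate 1 and 209.8 in replicate 2, and 268 in the pooled list, with the summit 206 bp upstream of the gene. The next lay 181 bp upstream of C49F5.6 (chrX:11988004-11988237), with 36 in replicate 1 and 207.9 in replicate 2. Both rows ranked higher in replicate 2 than in replicate 1, and no other X row reached the pooled rank of 500.

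Upstream of C04B4.2, the third, the signal was 26.9 in replicate 1 and 126 in replicate 2. K04C1.5, whose summit lay 399 bp upstream and held no core, had 43.6 in replicate 1 and 102 in replicate 2. lin-15B, a class B synMuv gene whose product keeps germline genes silent in somatic cells, had a summit 963 bp upstream (chrX:15725105-15725256). Its signal was 33.2 in replicate 1 and 105.3 in replicate 2, with pooled rank 617. The replicates placed it alike, at rank 771 in replicate 1 and 612 in replicate 2.

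The chtl-1 row lay in an intron, 941 bp upstream of a 5′ end of this choline transporter-like gene, and had a signal of 16.7 in replicate 1 and 118 in replicate 2. F31F6.3 (33.3 in replicate 1, 97.8 in replicate 2), W06D11.3 (29.3 and 100.6) and klp-13, a kinesin gene (29.7 and 89.7), followed. These 3 summits lay 401, 132 and 212 bp upstream, and only that of F31F6.3 held a core.

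meg-1, which encodes a P granule protein handed from mother to embryo, had a summit without a core 212 bp upstream (chrX:13929805-13929930). Its signal was 20.1 in replicate 1 and 88.1 in replicate 2. ppk-3, a phosphoinositide kinase gene, had 27.2 in replicate 1 and 67.5 in replicate 2, with a core, and crn-4, a cell-death-related nuclease gene, had 17.1 in replicate 1 and 63.9 in replicate 2, without one. Both stood near rank 1000 in the pooled list.

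The remaining genes of the 30 rows were F46H5.3, C07D8.6, got-2.2 (a mitochondrial aspartate aminotransferase gene), F35C8.8, pqn-65, B0416.10, F16B12.6, R04D3.3 with srd-38 (a predicted chemoreceptor gene) in the same window, C18B12.4, K10B3.5, F23D12.2 and H39E20.1. Their pooled signal values ran from 71.0 at H39E20.1 to 122 at F46H5.3. The windows of 3 of the 30 rows also held a non-coding gene or pseudogene (C14F11.30, C18B12.9 and an unnamed pseudogene beside F35C8.8). F23D12.2 was the row that failed to stand among the first 2498 of both replicates. It had a signal of 4.50 in replicate 1, at rank 21907, and 75.2 in replicate 2, at rank 863.

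The 6 rows with no protein-coding 5′ end in their window lay 1138 to 3230 bp from the nearest one and were all intergenic. The strongest, at rank 621, had 33.7 in replicate 1 and 106 in replicate 2, and lay 1749 bp from the nearest protein-coding 5′ end. Over all 98 X optimal rows, 33 lay outside every such window. Of these, 11 lay within 200 bp of a tRNA gene, 5 had another non-coding gene or a pseudogene in the window, and 17 had no annotated 5′ end there, with piRNA genes not counted. The 17 lay 1006 to 4666 bp from the nearest protein-coding 5′ end (median 1649 bp), and 6 of them held a core.

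The X optimal rows mostly ranked better in replicate 2 than in replicate 1. Over the 93 X optimal rows found in replicate 1, the lowest signal value was 3.96, the median 13.3 and the highest 62.9. Over the 97 found in replicate 2, the lowest was 19, the median 38 and the highest 209.8. Autosomal optimal rows also had the higher median in replicate 2, at 54.05 (2382 rows), against 22.39 in replicate 1 (2330 rows). Signal values were used to rank rows within 1 list, so these medians do not show which replicate ranked a row better. The better rank was in replicate 2 for 70 of the 92 X rows found in both (76.1%), against 54.5% of the 2330 autosomal rows found in both, which were not matched for rank and stood higher in the pooled list (median rank 1812 on X and 1231.5 on the autosomes). Spearman's rho between the replicates' signals was 0.50 over those X rows and 0.70 over the 2078 autosomal rows found in both from the best X rank on. That cut did not match the rank bands. At ranks 501 to 1000 stood 20 X and 476 autosomal optimal rows, and at ranks 2001 to 2498 stood 39 and 459. The shares and rho values are descriptions over regions that share libraries.

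Of the 98 X optimal rows, 46 (46.9%) stood among the first 2498 rows of both replicates, against 1758 of 2382 autosomal rows (73.8%), or 57.0% once the autosomal rows were weighted to the rank bands of the X rows. With rank held in bands of 500, the odds ratio was 0.466 (95% interval 0.251 to 0.856, exact conditional Cochran-Mantel-Haenszel test, two-sided, adjusted p = 0.0157), and 0.282 over promoter rows only, an alternative chosen after the data were seen. The lower share was seen in replicate 1. There, 55.1% of the X rows were among the first 2498, against 68.2% of autosomal rows at like rank, while in replicate 2 the shares were 85.7% and 85.1%. In replicate 1, 19 X rows (19.4%) were absent or ranked past 10000, against 9.74% of autosomal rows at like rank.

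**Figure D2:**
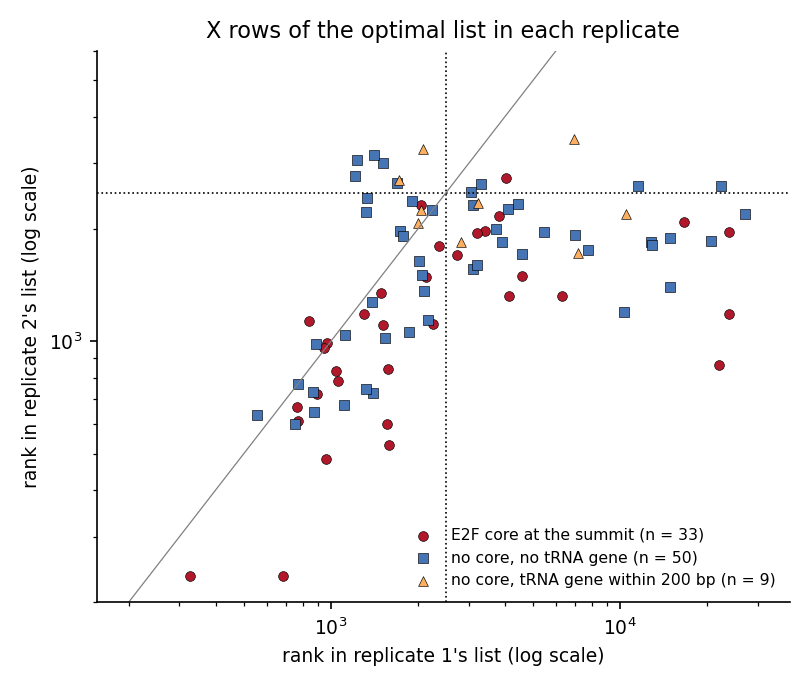
Rank of 92 X optimal rows in replicate 1 (x axis, log scale) and replicate 2 (y axis, log scale), 1 point a row, by core and tRNA gene; 1 of the 33 rows with a core also has a tRNA gene. The grey line marks equal rank and the dotted lines mark rank 2498; most points lie below the grey line, and a group of rows lies far to the right, at ranks past 10000 in replicate 1.

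At like rank, X optimal summits held an E2F core more often than autosomal ones. A core lay within 50 bp of 34 of 98 X summits (34.7%, 95% Wilson interval 26 to 44.5%), against 733 of 2382 autosomal summits (30.8%), or 24.0% at the rank bands of the X rows. The odds ratio was 1.73 (95% interval 1.08 to 2.73, exact conditional Cochran-Mantel-Haenszel test, adjusted p = 0.0247). The call rests on replicate 2: over the first 2498 rows of replicate 1 alone the ratio was 1.28 (adjusted p = 0.356, same exact test), and over those of replicate 2 alone 1.68. Across all of X, 2.69% of windows of the same length held a core, against 3.40% on the autosomes.

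Both X rows of the first 500 ranks held a core. At ranks 501 to 1000 it was 11 of 20 X rows, against 33.6% of autosomal rows, and at ranks 1001 to 1500 it was 8 of 15, against 25.05%. At ranks 2001 to 2498 the shares were 17.9% on X and 17.9% on the autosomes. The X rows with a core had a median signal of 67.7 and stood among the first 2498 rows of both replicates in 21 of 34 cases. Those without had a median of 44.0, and 25 of 64 did so. These sets were not matched for rank (median 1325 with a core and 1989.5 without) or for tRNA genes (1 row and 12 rows). The centre of the core lay a median of 15.5 bp from the X summit and 17 bp from the autosomal one, without matching for rank.

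On X, TTCCCGC was within 50 bp of 14 summits, TTCGCGC of 11, TTGCCGC of 10 and TTGGCGC of 2. The shares for TTCCCGC were 14.3% on X and 10.5% on the autosomes, and for TTCGCGC 11.22% and 10.8%. For TTGCCGC they were 10.2% on X and 4.62% on the autosomes, and for TTGGCGC 2.04% and 8.77%. No test was made on single variants, and the autosomal shares were not matched for rank.

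The share of optimal summits in a promoter window was 66.3% on X, against 76.7% on the autosomes and 71.7% at like rank. The odds ratio was 0.773, with a 95% interval from 0.489 to 1.24 that includes 1 (exact conditional Cochran-Mantel-Haenszel test, adjusted p = 0.276). Within replicate 1 alone it was 0.428, with 43.0% of X rows in a promoter window (adjusted p = 8.83e-05, same exact test). It turned to 1.03 once rows at tRNA genes were left out, an alternative chosen after the data were seen, and to 1.08 with a window of 2000 bp. Promoter windows covered 21.8% of the bases of X and 27.2% of autosomal bases. Summits in the windows lay a median of 250 bp from the 5′ end on X (quartiles 171 and 473 bp), and 191 bp on the autosomes (111 and 334 bp). These distances were not matched for rank.

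Promoters that serve genes on both strands, where a pair of genes diverges from 1 summit, were rare among the X promoter rows. They made up 7 of 65 on X (10.8%, 95% Wilson interval 5.32 to 20.6%), against 661 of 1828 on the autosomes (36.2%), or 33.1% at like rank. The odds ratio was 0.243 (95% interval 0.0928 to 0.540, exact conditional Cochran-Mantel-Haenszel test, adjusted p = 0.000107). It was 0.138 in replicate 1 alone and 0.114 with a promoter window of 500 bp upstream. Below the optimal list 4.12% of X promoter rows were of this kind, against 11.8% of autosomal ones. At ranks 20001 to 22500 the order was the other way, with 8 of 84 X promoter rows (9.52%), against 46 of 641 autosomal ones (7.18%). The genome differs in the same direction: 3.31% of the promoter-window bases of X served both strands, against 9.91% on the autosomes.

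**Figure D3:**
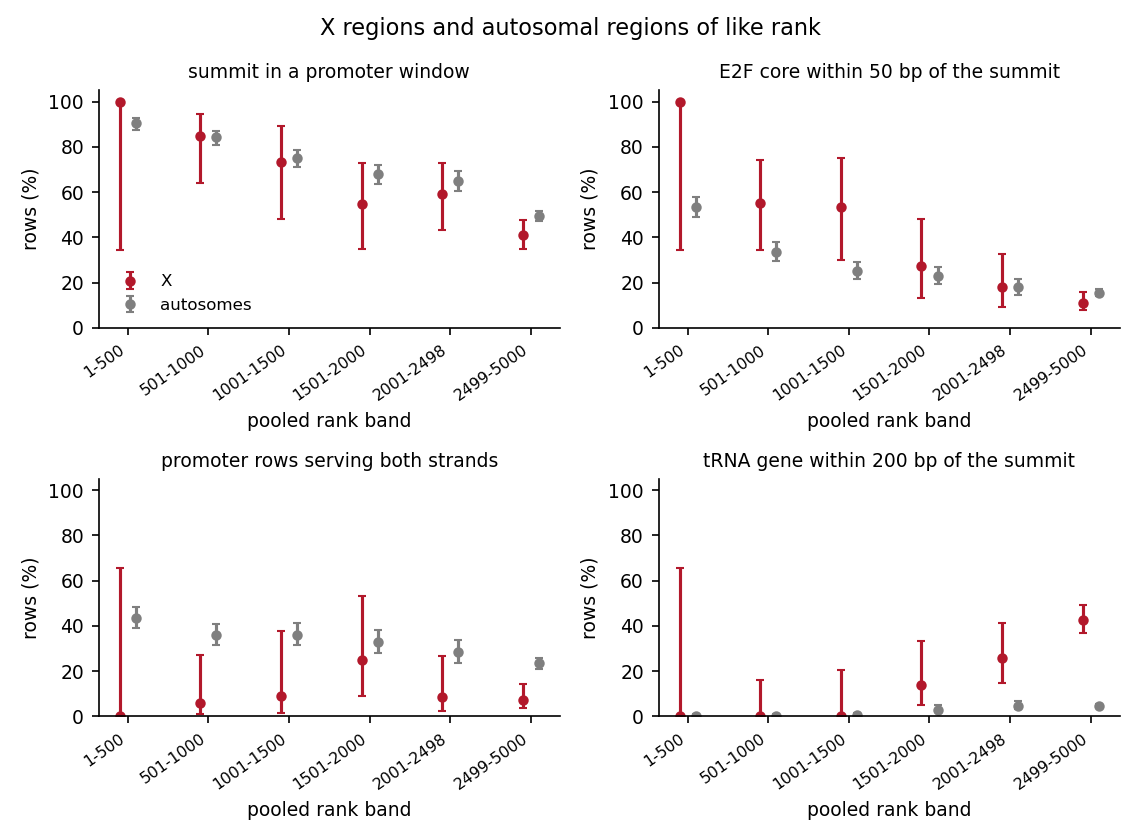
Percent of rows (y axes) with each of 4 properties by pooled rank band (x axes), X in red and autosomes in grey, with 95% Wilson intervals as bars; 2 X rows make up the first band. Both-strand promoters are scarcer on X in each of the 6 bands drawn, down to rank 5000, and the tRNA share of X rows reaches 42.8% at ranks 2499 to 5000.

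Summits at tRNA genes were common on X. A tRNA gene lay within 200 bp of 13 of 98 X optimal summits (13.3%), against 37 of 2382 autosomal ones (1.55%), or 2.54% at like rank. The odds ratio was 6.22 (95% interval 2.84 to 12.95, exact conditional Cochran-Mantel-Haenszel test, adjusted p = 1.14e-05), and 13.1 over the first 2498 rows of replicate 1 alone. Stretches within 200 bp of a tRNA gene made up 0.680% of the bases of X and 0.185% of autosomal bases. X holds 276 of the annotated tRNA genes (45.1%) and the autosomes 336. Just below the optimal list, at ranks 2499 to 5000, 101 of 236 X rows lay at a tRNA gene (42.8%), against 101 of 2264 autosomal rows (4.46%). Without rows at tRNA genes, X held 3.498% of the nuclear rows in the first 2498 ranks and 5.87% of ranks 2499 to 5000.

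Counted per gene, tRNA genes on X had a summit about as often as those on the autosomes down to rank 5000. A summit of rank 1 to 5000 lay within 200 bp of 128 of 276 X tRNA genes (46.4%, 95% Wilson interval 40.6 to 52.3%), against 152 of 336 autosomal ones (45.2%, 40.0 to 50.6%). For protein-coding genes, counted within 200 bp of a 5′ end, the shares were 53 of 2731 on X (1.94%, 1.49 to 2.53%) and 1629 of 17242 on the autosomes (9.45%, 9.02 to 9.89%). snoRNA genes, whose products guide RNA modification, had 4 of 33 on X and 108 of 313 on the autosomes (34.5%). Within the optimal list alone the tRNA shares were 5.80% on X and 12.8% on the autosomes. For protein-coding genes the shares there were 0.769% and 6.15% within 200 bp of a 5′ end. In the wider promoter window they were 2.64% and 14.1%, so the size of this gap depends on the window. The strongest tRNA row on X had a signal of 46.8 at rank 1883, and the strongest autosomal one 81.8 at rank 1099. Neighbouring tRNA genes can share a summit, and no test was made on these shares.

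**Figure D4:**
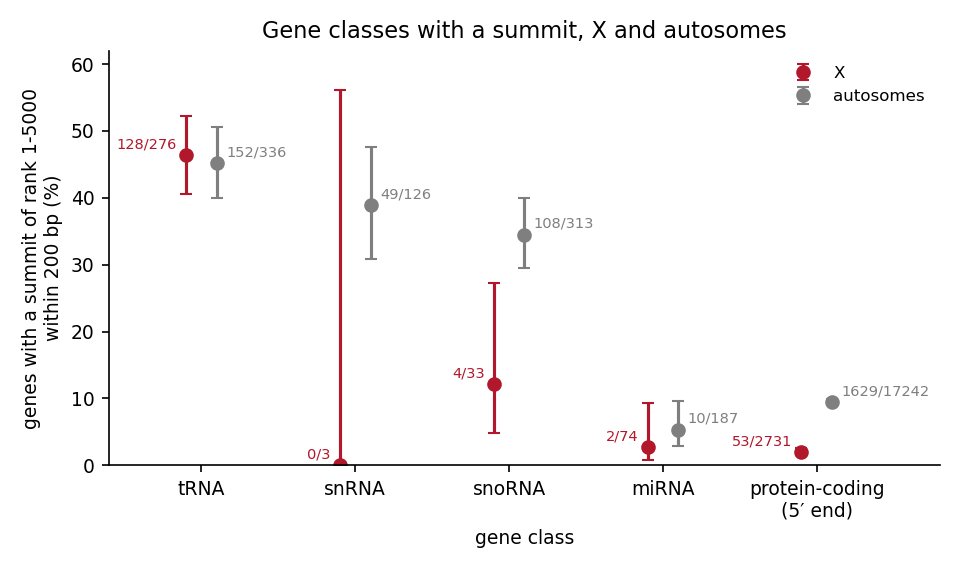
Percent of genes with a summit of rank 1 to 5000 within 200 bp (y axis) by gene class (x axis), X in red and autosomes in grey, with 95% Wilson intervals and counts. tRNA genes stand at 46.4% on X and 45.2% on the autosomes, while protein-coding 5′ ends stand at 1.94% and 9.45%.

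RNA polymerase III reads tRNA genes from promoter boxes inside the gene, one of which carries GGTTCGA. It was present on the gene's own strand at 10 of the 13 X optimal rows at tRNA genes, and in 64.1% of all X tRNA genes. The rows at ranks 1883 and 2126 are shown with GGTTCGA, on either strand, in capitals. Those at tRNA genes at ranks 1888 and 1978 are not shown.
tRNA gene at rank 1883, chrX:16590935-16590963, minus strand: agaaggtcgccGGTTCGAACCcggccagg
tRNA gene at rank 2126, chrX:9743628-9743656, plus strand: gagaagtctggGGTTCGAttccccatacc
The centre of GGTTCGA lay at -58 bp from the summit in the first and at -45 bp in the second, in chromosome coordinates. The first row had a signal of 11 in replicate 1 and 35 in replicate 2. The second had 21 in replicate 1 and was absent from replicate 2's list, the only X optimal row missing there.

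Few X genes with a core beside the 5′ end had an optimal summit. A gene is called bound here when an optimal summit lay in its promoter window, which held for 72 of 2731 X protein-coding genes (2.64%) and 2431 of 17242 autosomal ones, where 12.5% of all 19973 were bound. Genes with a core within 150 bp of a 5′ end were 9.67% of X genes and 10.6% of autosomal genes. Of these, 10 of 264 were bound on X (3.79%, with a 95% Wilson interval of 2.07 to 6.83%), and 526 of 1820 were bound on the autosomes (28.9%, 26.9 to 31%). The odds ratio was 0.0969 (95% interval 0.0455 to 0.183, two-sided Fisher's exact test, adjusted p = 6.39e-23), and 0.0606 with the first 2498 rows of replicate 1 alone. Without a core, 62 of 2467 X genes were bound (2.51%), against 1905 of 15422 autosomal genes (12.4%). Genes were the units of the test above, although 1 summit can lie in the windows of several genes. That held for 700 of 1828 autosomal promoter rows (38.3%) and for 7 of 65 X promoter rows (10.8%). The autosomal counts thus hold more genes with a shared summit, and the interval and p-value treat them as separate.

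Every autosome stood above X. With a core, the share bound ran from 20.6% on V to 37.6% on III, and without one from 7.07% on V to 19% on III. The X genes with and without a core had overlapping intervals (2.07 to 6.83% and 1.97 to 3.21%), while on each autosome they did not overlap. The X interval with a core rests on 10 bound genes, against 79 to 132 on each autosome. On X too the share was higher with a core, at 3.79% against 2.51%. Whether the gap between genes with and without a core differs between X and autosomes was not tested. When the core was sought in the whole promoter window, an alternative chosen after the data were seen, 42 of 854 X genes with a core were bound (4.92%), against 22.6% of 5939 autosomal genes, and the odds ratio was 0.177. Down to the end of the pooled list, 35.2% of X genes with a core had a summit in their window, against 62.7% of autosomal genes with a core.

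**Figure D5:**
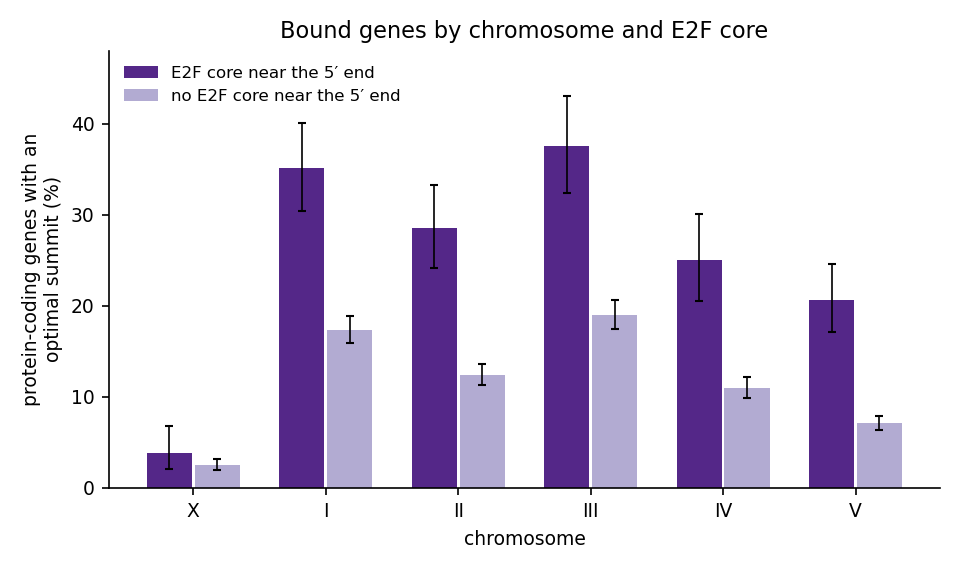
Percent of protein-coding genes with an optimal summit in their promoter window (y axis) by chromosome (x axis), for genes with and without an E2F core within 150 bp of a 5′ end, with 95% Wilson intervals. X stands at 3.79% and 2.51%, below every autosome in both classes.

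Among X genes of the 8 gene lists, 6 of 133 were bound: ceh-39, sdc-1, meg-1, meg-3, lin-15B and rpl-11.2. In the list of X signal, sex determination and dosage compensation genes, 2 of 8 X members were bound, against 8 of 16 autosomal members. ceh-39, a homeobox gene that acts as an X signal element in counting X chromosomes, had a summit with a core 197 bp upstream, with a signal of 17.4 in replicate 1 and 58.9 in replicate 2. sdc-1, a zinc-finger gene of sex determination and dosage compensation, had one with a core 240 bp upstream, with 10.3 in replicate 1 and 33.0 in replicate 2.

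Of the unbound members, fox-1 and sex-1, both X signal elements, and sdc-2, which brings the dosage compensation complex to X, had no row of the pooled list in their windows. nhr-1, a nuclear receptor gene, had a row at rank 3773. tra-4 and xol-1, named after their values were seen, had a row at rank 2793 and none. Ranks and not signals are given for these because they lay below the optimal list.

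In the germline, P granule and early embryo list, 3 of 8 X members were bound, against 42 of 55 autosomal members (76.4%). They were meg-1, meg-3 and lin-15B, of which lin-15B also stood in 2 other lists. meg-3, a scaffold protein of P granules, had a summit 153 bp upstream with a signal of 3.96 in replicate 1, at rank 26998, and 29.4 in replicate 2, at rank 2197. It stood among the first 2498 rows in replicate 2 only. Their relatives meg-4 and meg-2 had rows at ranks 5872 and 12712, alg-1, an Argonaute gene, had one at rank 8162, and lin-15A had none.

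As chosen here, the lists of cell cycle and housekeeping genes have few X members. Of the DNA replication, cell cycle and mitosis list, 0 of 2 X members (cdk-4, with a row at rank 14009, and coh-1, with none) were bound, against 88 of 111 autosomal members (79.3%). Of the RNA processing, translation and protein turnover list, 1 of 7 X members was bound, rpl-11.2, a ribosomal protein gene with a signal of 10.2 in replicate 1 and 24.7 in replicate 2. The autosomal members were bound in 47 of 68 cases. eef-1A.2 and hsp-3, for a translation elongation factor and an endoplasmic reticulum chaperone, had rows at ranks 3161 and 3737, ife-4 had one at rank 25627 and ife-2 had none. Of the DREAM, E2F and synMuv list, 1 of 4 X members was bound, lin-15B, against 17 of 35 autosomal members; hpl-1 had a row at rank 21132, and jmjd-3.1 and utx-1 had none.

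The lists of somatic function, as chosen here, hold most of the X members. Members were picked for this report, so the X share of a list is not that of such genes in the genome. Of the nervous system list 0 of 51 X members were bound, acr-2, acr-3, cat-1 and ceh-14 among them, against 2 of 26 autosomal members. Of the muscle, cuticle and intestine list 0 of 36 were bound, including asp-3, asp-4, col-166 and col-176, against 1 of 39. Of the signalling and development list 1 of 22 was bound, lin-15B again, against 13 of 71; aak-2, bar-1 and ced-8 had no row and akt-2 had one at rank 7515. Over all X genes the share bound was 2.64%, and over all autosomal genes 14.1%.

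The X rows below the optimal list were 3367, and the E2F core was less common there than among the optimal rows. Their lowest signal value was 6.94, the median 9.57 and the highest 34.4, against a median of 10.1 for the 24133 autosomal rows. Promoter windows held 25.22% of the X summits, where they cover 21.8% of X bases, against 32.2% of the autosomal summits, where they cover 27.2% of bases. At like rank the odds ratio was 0.734 (95% interval 0.674 to 0.797, exact conditional Cochran-Mantel-Haenszel test, adjusted p = 3.10e-13). A core lay at 5.76% of the X summits, where 2.69% of X windows hold one, against 6.60% of the autosomal ones, with an odds ratio of 0.922 and an interval of 0.785 to 1.08 (adjusted p = 0.318, same exact test). In each replicate's own list, and with the core sought within 25 bp, that ratio was lower and passed the threshold of 0.05. By annotation, 44.8% of these X summits were intergenic, 29.2% intronic and 14.8% in coding exons. The bases of X were 40.96% intergenic, 31% intronic and 19.97% coding.

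The end of the optimal list fell among X rows of similar signal. Just inside it lay C05G5.2 at rank 2475 with a signal of 35.3 and the meg-3 row at rank 2452 with 35.5. Just outside lay an intergenic row at rank 2527 with 34.4 and a row in the window of ajm-1, an apical junction gene, at rank 2531 with 34.3. The summits just outside both had a tRNA gene within 200 bp, and those just inside had none. None of the 4 held a core. The ranks in replicate 1 and replicate 2 were 11478 and 2609 for C05G5.2 and 26998 and 2197 for meg-3. They were 2022 and 2515 for the intergenic row and 8875 and 2486 for ajm-1. The window of the meg-3 row also reached Y40A1A.2. The central bases of the 4 summits are shown for comparison with the strongest rows.
C05G5.2, chrX:14747186-14747214, plus strand: ctcgagaaatgcgccagctgcgcactttt
meg-3, chrX:1989746-1989774, plus strand: gagagtgtgagaggtagagaaagagcgcg
Intergenic row at rank 2527, chrX:3036104-3036132, plus strand: aaaacgagtagcatgtgtgtttgctgctt
ajm-1, chrX:9091554-9091582, plus strand: cataggttccaccgagatttgaactcggg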

How the data were processed

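ChIP-seq regions of 2 biological replicates were analysed, as region lists on ce11 from each replicate and from both together. The signal value and the −log10 q value of each region are the authors' own, deposited in the narrowPeak layout. The signal's scale, the aligner, the peak caller and the value of the optimal list's threshold are not given in the labels or headers. That threshold is described as one on the irreproducible discovery rate. A signal value was used to rank regions within its own list. Each relaxed list holds 30000 rows; sequencing depth is unknown, so intervals cover counting of regions only.

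Summits were set against Ensembl release 115 and the RefSeq genome, and piRNA genes were left out when other genes in a window were listed. Motifs were searched on both strands in 101 bp. Rows overlapping by at least 1 bp were matched between lists. X and autosomes were compared with Fisher's exact test, or with the exact conditional Cochran-Mantel-Haenszel test over bands of 500 ranks inside the optimal list and 2500 below it (R 4.3.3), two-sided, with Benjamini-Hochberg adjustment over 9 tests and a threshold of 0.05. The tests were checked on simulated strata of known odds ratio. Shares carry 95% Wilson intervals (Python 3.11.15). The replicates were left out in turn where a result did not need both. Windows, bands, neighbouring summits, tRNA rows and the build were varied. Mitochondrial rows (20) were left out of comparisons. Named genes are those with a window holding 1 of the 30 strongest X optimal summits, and X members of the lists: all bound ones and up to 4 unbound ones each; tra-4 and xol-1 were added after their values were seen. Sequences are those of the strongest rows with and without a core, of rows at tRNA genes, and of rows beside the end of the optimal list. The members, lists and tests were chosen with earlier results of these data known.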

Additional observations from a re-analysis of the deposited data

How the results depend on the processing

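Of 58 alternatives over the 9 odds ratios, 51 kept direction and side of the threshold. Leaving out 1 replicate gave odds ratios of 0.238 to 0.318 for being optimal. For a promoter summit they were 0.428 to 0.727 among optimal rows and 0.704 to 0.748 below the list. For a core they were 1.28 to 1.68 among optimal rows and 0.763 to 0.834 below the list. For both-strand promoters they were 0.138 to 0.247, for tRNA genes 7.94 to 13.1 and for genes with a core 0.0606 to 0.0998. Standing at the top of both replicates needs both lists, so neither could be left out of that result. Its ratios of 0.524 and 0.377 took the top rows of replicate 1 and of replicate 2 in place of the optimal rows. They asked whether those rows also stood at the top of the other replicate. Both are counted among the 58 alternatives and the 51. The core below the list passed the threshold with the window cut to 25 bp, at 0.745. The promoter ratio among optimal rows turned to 1.08 with a window of 2000 bp and to 1.03 without rows at tRNA genes. The cause was not tested. No paired analysis was possible because there is 1 group. In ce10, X held 101 of 2542 optimal rows and the ratio was 0.298. Restricting to the upper 50% of the optimal list gave 0.171. 11 alternatives were chosen after the data were seen.

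The X optimal rows are few, so single shares have wide intervals, and with 2 replicates little can be said of any one region. Sequencing depth is unknown.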

Other observations

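The CHR-type sequence TTCGAA or TTTGAA, an element that DREAM complexes use, lay at few X optimal summits. It was found within 50 bp of 13 of 98 X summits (13.3%, 95% Wilson interval 7.92 to 21.4%), against 950 of 2382 autosomal summits (39.9%). Windows of the same length held it in 32.8% of cases on X and 33.6% on the autosomes. The autosomal summits used here, and for GC content and the words below, were not matched for rank (median 1231.5, against 1812 on X). The mean GC content of the 101 bp was 49.7% at X summits and 43.1% at autosomal ones, while X as a whole had 35.2% and the autosomes 35.5%. The word is rich in A and T, no test was made of its share, and the part of GC content was not tested. GAGAGAGA lay at 2 X summits (2.04%), against 1.85% of autosomal ones, and GCGCAGGG, part of a motif of dosage compensation recruitment sites, at 1 of 98, against 3 of 2382. Of all windows of the same length, GAGAGAGA was in 0.553% on X and 0.688% on the autosomes, and GCGCAGGG in 0.0388% and 0.0263%.

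The X optimal rows were spread along the chromosome: 34 lay in its left part, 26 in its middle and 38 in its right, when X is cut into 3 equal parts that held 31.9%, 35.8% and 32.3% of its protein-coding genes. Neighbouring X optimal summits lay a median of 138 kb apart. The longest stretch without one was 1018 kb, and 3 gaps were under 10 kb. The number per megabase ran from 2 to 14, the most lying between 14 and 15 Mb.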
